A study of Homo sapiens with 9 samples.

Results

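The 9 genes described here make, sense or pass on eicosanoids, the signalling lipids cut from arachidonic acid: PLA2G4A, PTGS1, PTGS2, PTGES, PTGER2, PTGER4, ALOX5, ALOX5AP and LTA4H. They were measured in the myeloma line MM.1S, an established human cell line, after 24 h of exposure to 5 nM HL13, to 5 nM LBH589 or to DMSO alone, on 3 arrays per group and 9 altogether. DMSO is the solvent of both compounds, LBH589, or panobinostat, blocks histone deacetylases and served as the comparison drug, and HL13 is known here by its code alone. Total RNA was read on an Affymetrix Human Transcriptome array, on which a transcript cluster is the set of probes of 1 gene, and each value is a log2 intensity, so that a difference of 1 is a 2-fold change. All groups share the cell line and culture medium. The titles speak of biological replicates but name no separate cultures, and the p values therefore reflect a spread from array to array that may in part be technical.

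The 9 genes are 9 of the 22465 genes that were tested. They were chosen by symbol, and where a gene had several clusters the one with the highest mean intensity over the 9 arrays was selected on that value. Each of the 9 had a single cluster with that symbol alone, so intensity decided nothing within a gene. PTGS2 and PLA2G4A lie on chromosome 1, PTGS1 and PTGES on chromosome 9, PTGER4 on 5, ALOX5 on 10, LTA4H on 12, ALOX5AP on 13 and PTGER2 on 14. The pathway itself was picked with earlier results of these arrays known, so its movement is described and is not independent evidence about eicosanoids. The medians of the 9 arrays lay between 5.33 and 5.38, and a gene is called low in a group when none of its arrays lay above the median of its own array. Of 8 plasma cell markers, all lay above the array median on every array. That position alone does not identify the cell type. Of the monocyte and neutrophil, platelet, and fibroblast and endothelial markers, 4 of 8, 4 of 5 and 5 of 6 also lay above it on all DMSO arrays. The mean of the 8 plasma cell markers was 10.1 in DMSO, beside 5.21 to 5.25, 5.71 to 5.76 and 5.39 to 5.51 for those lists in the same order. With either compound 7 of the 8 plasma cell markers were lower and 1, CD38, was higher. Of all genes tested, 21.5% were lower and 22.9% higher with HL13, and 19.0% and 20.9% with LBH589. The mean of the 8 plasma cell markers ranged from 8.50 to 8.62 on the treated arrays. In bulk RNA, fewer cells of a kind and less RNA per cell cannot be told apart.

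Eicosanoid synthesis begins when a phospholipase A2 frees arachidonic acid from membrane lipids. Cyclooxygenases, the products of PTGS1 and PTGS2, turn it into prostaglandin H2, from which terminal synthases such as that of PTGES make prostaglandin E2, which acts through receptors that include those of PTGER2 and PTGER4. In the other arm, ALOX5 with its helper ALOX5AP oxidises arachidonic acid to leukotriene A4, and LTA4H hydrolyses this to leukotriene B4. PTGS2 is known as the inducible cyclooxygenase, kept low in most resting cells and switched on by inflammatory and growth signals, whereas the leukotriene enzymes are best known from myeloid cells.

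The genomic sequence just before the start of 5 of the genes is shown because they cover the range of responses described next: PTGS2, with the largest change, PLA2G4A, its neighbour on the chromosome, ALOX5AP and LTA4H of the leukotriene arm, and PTGES, which did not pass the test. The windows are RefSeq's, build GRCh38.p14, and hold the 250 bases before the annotated start, written 5′ to 3′ on the strand of the gene, with capitals marking matches to 6 motifs searched on both strands.
PTGS2, chr1:186680424-186680673, minus strand: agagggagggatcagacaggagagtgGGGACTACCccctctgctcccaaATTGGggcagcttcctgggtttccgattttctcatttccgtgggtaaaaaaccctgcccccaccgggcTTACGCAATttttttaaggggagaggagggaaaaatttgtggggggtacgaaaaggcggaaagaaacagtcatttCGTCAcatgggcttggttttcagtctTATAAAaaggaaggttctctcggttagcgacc
PLA2G4A, chr1:186828699-186828948, plus strand: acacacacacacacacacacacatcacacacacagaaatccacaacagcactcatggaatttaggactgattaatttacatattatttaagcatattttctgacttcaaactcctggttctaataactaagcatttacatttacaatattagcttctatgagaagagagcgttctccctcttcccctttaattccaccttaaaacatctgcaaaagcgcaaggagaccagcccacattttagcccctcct
ALOX5AP, chr13:30713235-30713484, plus strand: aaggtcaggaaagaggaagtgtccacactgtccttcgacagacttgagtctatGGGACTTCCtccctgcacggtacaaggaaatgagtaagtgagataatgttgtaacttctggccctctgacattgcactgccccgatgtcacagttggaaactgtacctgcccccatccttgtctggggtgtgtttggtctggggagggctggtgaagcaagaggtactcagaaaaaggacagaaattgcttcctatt
LTA4H, chr12:96035588-96035837, minus strand: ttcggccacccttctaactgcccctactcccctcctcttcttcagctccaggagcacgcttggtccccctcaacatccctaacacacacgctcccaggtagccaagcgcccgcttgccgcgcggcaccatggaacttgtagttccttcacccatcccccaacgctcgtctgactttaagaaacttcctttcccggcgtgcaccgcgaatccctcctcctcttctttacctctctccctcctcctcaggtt
PTGES, chr9:129753043-129753292, minus strand: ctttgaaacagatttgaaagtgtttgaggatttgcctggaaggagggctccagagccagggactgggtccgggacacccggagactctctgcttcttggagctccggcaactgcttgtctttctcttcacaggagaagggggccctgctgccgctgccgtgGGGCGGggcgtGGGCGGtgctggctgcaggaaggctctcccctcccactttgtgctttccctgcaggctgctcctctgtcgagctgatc

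The TATA box, bound by the general transcription machinery, was searched as TATAAA. The core of a cyclic AMP response element, or CRE, which CREB and ATF proteins bind, was taken as CGTCA. A C/EBP motif was written as TTNNGCAAT and the core of an NF-kB site as GGGANTNCC, where N is any base. The GC box, the letters read by SP1, was searched as GGGCGG, and the CCAAT box by its own name. The PTGS2 window held 5 of the 6, each once and none overlapping another. Counted in bases before the start, the NF-kB core lay at 224 to 216, the CCAAT box, on the other strand and so printed as ATTGG, at 201 to 197, the C/EBP motif at 133 to 125, the CRE core at 58 to 54 and the TATA box at 32 to 27. Of the 34788 windows of this length in the RefSeq table, 10.8% held a TATA box, 21.2% the CRE core, 2.03% the C/EBP motif, 3.74% the NF-kB core, 42.6% a GC box and 32.0% a CCAAT box. The PLA2G4A and LTA4H windows held none of the 6, the ALOX5AP window an NF-kB core alone at 197 to 189, and the PTGES window 2 GC boxes at 89 to 84 and 78 to 73. The 2 receptor windows, not printed, were the richest in G and C, with 72.8% for PTGER4 and 74.0% for PTGER2 against a median of 58.0% over all windows. PTGER4 held 4 GC boxes and 2 CCAAT boxes, and PTGER2 held 2 GC boxes and a CRE core. PTGS1 has 2 annotated starts. Its first window held a TATA box, on the other strand, at 208 to 203 and a GC box at 58 to 53. The second held a GC box, on the other strand, at 202 to 197. ALOX5 was not matched. A match is a run of letters and no evidence of binding.

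PTGS2 stood out among the 9 genes. Both compounds raised it, HL13 far more than LBH589, and the arrays of the 3 groups did not overlap. Besides PTGS2, the phospholipase PLA2G4A, the other cyclooxygenase PTGS1, the receptor PTGER4 and the 3 leukotriene genes ALOX5, ALOX5AP and LTA4H rose with either compound. PTGES and PTGER2 did not pass the test in any comparison.

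The counts were the same against DMSO for both compounds. With HL13, 7 of the 9 genes were called higher and 0 lower in limma's moderated test, at a Benjamini-Hochberg adjusted p under 0.05 over all genes tested. Over those 22465 genes, 22.9% were called higher and 21.5% lower with HL13. With LBH589 the same 7 of 9 were called higher and 0 lower, beside 20.9% and 19.0% of all genes. The median log2 change of the 9 was 0.90 with HL13, against 0.00 for all genes, and 0.45 with LBH589, against 0.01. These 2 comparisons share the DMSO arrays, so they are not independent of each other.

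**Figure D1:**
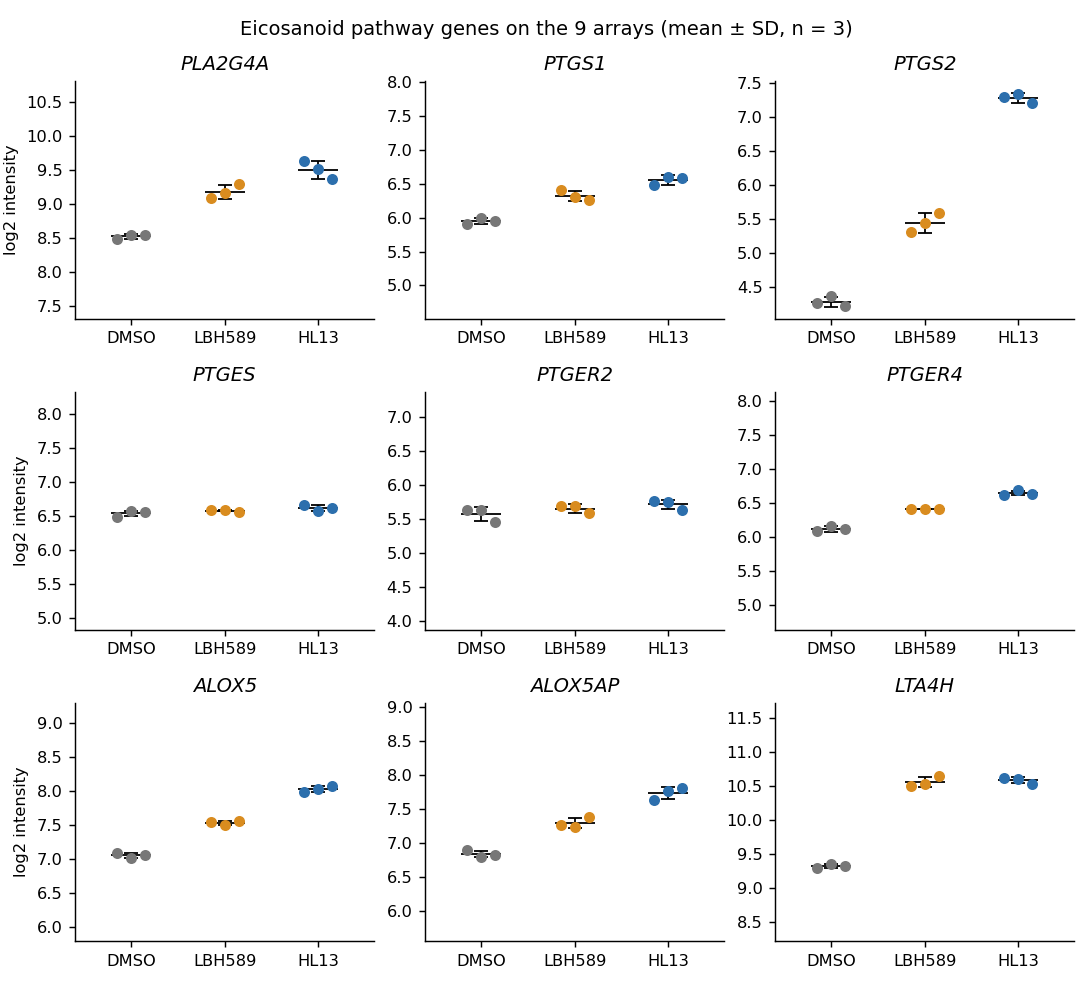
Log2 intensity of the 9 genes on each array, with 1 panel per gene and axes of equal span but different position. Dots are arrays (grey DMSO, orange LBH589, blue HL13), and lines and bars are the mean ± SD of 3. PTGS2 moves from 4.28 in DMSO to 5.44 with LBH589 and 7.28 with HL13, while PTGES and PTGER2 stay nearly level and LTA4H reaches the same height with either compound.

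PLA2G4A encodes the cytosolic phospholipase A2 that prefers arachidonic acid and is switched on by calcium. Its cluster read 8.48, 8.55 and 8.55 on the DMSO arrays, 9.09, 9.16 and 9.29 with LBH589 and 9.63, 9.52 and 9.37 with HL13. All treated arrays lay above all DMSO arrays, and the lowest HL13 array lay only just above the highest LBH589 array. The log2 change was 0.98 with HL13 (SE 0.07, 95% interval 0.82 to 1.14, adjusted p = 2.74e-06), a 1.97-fold rise. With LBH589 it was 0.65 (95% interval 0.49 to 0.81, adjusted p = 5.07e-05), a 1.57-fold rise. The difference between the compounds was 0.33 (95% interval 0.17 to 0.49, adjusted p = 0.00909).

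PTGS2, the inducible cyclooxygenase, was low in DMSO, where its cluster read 4.26, 4.35 and 4.21 and lay below the array median on all 3 arrays. It read 5.30, 5.43 and 5.59 with LBH589, where 2 of 3 arrays lay above the array median, and 7.30, 7.34 and 7.20 with HL13, where all 3 did. Each group was therefore clear of the next, and the gap from LBH589 to HL13 was wider than the gap from DMSO to LBH589. The means were 4.28 ± 0.07 in DMSO, 5.44 ± 0.14 with LBH589 and 7.28 ± 0.07 with HL13 (SD, n = 3). The log2 change with HL13 was 3.0 (SE 0.07, 95% interval 2.84 to 3.17, adjusted p = 3.65e-09), an 8.03-fold rise (95% interval 7.16 to 9.0). Only 10 of the 22465 genes rose by more with HL13. With LBH589 the change was 1.16 (95% interval 1.0 to 1.33, adjusted p = 1.31e-06), a 2.24-fold rise that 186 genes exceeded. Since background values were not used here, a fold against a low group may be understated.

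PTGS1, the cyclooxygenase that most tissues make at a steady level, moved far less. Its cluster read 5.90, 5.996 and 5.95 in DMSO, 6.40, 6.30 and 6.26 with LBH589 and 6.47, 6.60 and 6.58 with HL13. The groups did not overlap, although the highest LBH589 array came close to the lowest HL13 array. The log2 change was 0.60 with HL13 (SE 0.05, 95% interval 0.49 to 0.72, adjusted p = 6.58e-06) and 0.37 with LBH589 (95% interval 0.26 to 0.48, adjusted p = 2.19e-04), which are rises of 1.52-fold and 1.29-fold. In contrast to PTGS2, PTGS1 lay above the array median on all 9 arrays, so it was not low in DMSO as defined above. That position does not show expression. Markers of other cells, such as MPO and PF4, also lay above the median on all arrays, with DMSO means of 6.48 and 6.54.

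PTGES encodes the microsomal prostaglandin E synthase that is often induced along with PTGS2 in inflamed tissue. Here its cluster read 6.49, 6.57 and 6.56 in DMSO, 6.59, 6.58 and 6.56 with LBH589 and 6.66, 6.57 and 6.62 with HL13. The HL13 arrays lay just above the DMSO arrays without overlap, yet the log2 difference was 0.08 (95% interval 0.01 to 0.15) with an adjusted p of 0.0802. With LBH589 the groups overlapped, and the difference was 0.04 (95% interval -0.03 to 0.11, adjusted p = 0.413). A test that is not passed does not show an unchanged level. The DMSO mean of PTGES, 6.54, was near those of MPO, 6.48, and PF4, 6.54, markers of other cells, so this position does not show expression.

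Of the 2 receptors for prostaglandin E2, both of which raise cyclic AMP, PTGER4 rose. It read 6.09, 6.16 and 6.11 in DMSO, 6.41, 6.41 and 6.41 with LBH589 and 6.63, 6.69 and 6.64 with HL13. The groups were well separated and the LBH589 arrays nearly identical. The log2 change was 0.53 with HL13 (SE 0.03, 95% interval 0.46 to 0.60, adjusted p = 5.77e-07) and 0.29 with LBH589 (95% interval 0.22 to 0.36, adjusted p = 4.07e-05), rises of 1.44-fold and 1.22-fold.

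PTGER2 read 5.63, 5.64 and 5.45 in DMSO, 5.69, 5.69 and 5.58 with LBH589 and 5.76, 5.75 and 5.64 with HL13. The third array of every group was the lowest of its group, and the groups overlapped or touched. The log2 difference was 0.14 with HL13 (95% interval 0.01 to 0.27, adjusted p = 0.0864) and 0.08 with LBH589 (95% interval -0.05 to 0.21, adjusted p = 0.369). With the replicate number as a block in the fit, the HL13 difference passed the threshold (adjusted p = 0.00916). The numbers do not pair the samples by any label, and that value is given for the sensitivity of the call alone.

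ALOX5, the 5-lipoxygenase, rose in well separated steps. Its cluster read 7.08, 7.01 and 7.06 in DMSO, 7.55, 7.50 and 7.55 with LBH589 and 7.98, 8.04 and 8.07 with HL13. The log2 change was 0.97 with HL13 (SE 0.03, 95% interval 0.90 to 1.05, adjusted p = 2.35e-08) and 0.48 with LBH589 (95% interval 0.40 to 0.56, adjusted p = 2.63e-06), rises of 1.97-fold and 1.40-fold.

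ALOX5AP encodes FLAP, the membrane protein that hands arachidonic acid to the 5-lipoxygenase. It read 6.89, 6.80 and 6.83 in DMSO, 7.26, 7.24 and 7.38 with LBH589 and 7.64, 7.76 and 7.80 with HL13. The steps were nearly those of ALOX5, again with no overlap between groups. The log2 change was 0.90 with HL13 (SE 0.05, 95% interval 0.77 to 1.02, adjusted p = 8.23e-07) and 0.45 with LBH589 (95% interval 0.33 to 0.57, adjusted p = 9.94e-05).

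LTA4H, the hydrolase that forms leukotriene B4, had a different pattern. It read 9.29, 9.34 and 9.32 in DMSO, 10.50, 10.53 and 10.64 with LBH589 and 10.62, 10.61 and 10.53 with HL13. All 6 treated arrays lay more than 1 log2 unit above DMSO, and the treated groups overlapped. The log2 change was 1.27 with HL13 (SE 0.04, 95% interval 1.17 to 1.37, adjusted p = 2.31e-08) and 1.24 with LBH589 (95% interval 1.14 to 1.34, adjusted p = 3.52e-08), rises of 2.41-fold and 2.36-fold. Among all genes, 247 rose by more with HL13 and 154 with LBH589. With LBH589 it was LTA4H, not PTGS2, that rose most among the 9.

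Because 5-lipoxygenase and its partners are typical of myeloid and mast cells, and PTGS1 of platelets, markers of other cells were read on these arrays. The shares of all genes called higher and lower were 22.9% and 21.5% with HL13 and 20.9% and 19.0% with LBH589. Of 8 monocyte and neutrophil markers, 0 were called in either direction with either compound, and their mean ranged from 5.21 to 5.25 in DMSO, 5.23 to 5.27 with HL13 and 5.203 to 5.325 with LBH589. CD14, LYZ, FCGR3A and S100A8 lay below the array median on all arrays, and CSF1R, ITGAM, S100A9 and MPO above it on all arrays. Of 5 platelet markers 0 were called against DMSO, with means of 5.71 to 5.76 in DMSO, 5.69 to 5.76 with HL13 and 5.70 to 5.84 with LBH589. Of 3 measured mast cell markers 1, KIT, was higher with HL13 by 0.26 (adjusted p = 0.00309), from a mean of 3.56 in DMSO, with list means of 4.08 to 4.09, 4.10 to 4.21 and 4.07 to 4.11 in the same order. Of 6 fibroblast and endothelial markers, COL1A1 was higher with both compounds, by 0.30 and 0.18, and PECAM1 was higher with HL13 by 0.75 and lower with LBH589 by 0.39. The means of that list were 5.39 to 5.51, 5.59 to 5.62 and 5.40 to 5.47, and their part in the PTGS2 result was not tested.

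The compounds were compared at the same dose and time, as 1 pair. HL13 gave the higher level in 6 of the 9 genes and the lower level in 0, beside 11.7% of all genes called higher and 11.6% called lower between the compounds. The median difference of the 9 was 0.24, against 0.00 for all genes. PTGS2 had the widest difference of the 9, with 1.84 on the log2 scale (95% interval 1.67 to 2.01, adjusted p = 1.90e-06), a level 3.58 times that with LBH589. Of all genes, only LIPH, a phospholipase that makes lysophosphatidic acid, differed by more, with 1.86.

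In the other 5 genes that differed, the gap was smaller. It was 0.49 for ALOX5 (95% interval 0.42 to 0.57, adjusted p = 1.49e-05) and 0.44 for ALOX5AP (95% interval 0.32 to 0.57, adjusted p = 3.96e-04). PTGER4 differed by 0.24 (95% interval 0.17 to 0.31, adjusted p = 4.75e-04), PTGS1 by 0.23 (95% interval 0.12 to 0.35, adjusted p = 0.00808) and PLA2G4A by the 0.33 already given. The other 3 genes did not pass: LTA4H, with 0.03 (95% interval -0.07 to 0.13, adjusted p = 0.741), PTGES, with 0.04 (95% interval -0.04 to 0.11, adjusted p = 0.487), and PTGER2, with 0.06 (95% interval -0.07 to 0.19, adjusted p = 0.552). For these 3 the intervals bound the difference at under 0.20 in either direction, which does not show that the compounds act alike.

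Set against the HL13 change of the same gene, the LBH589 change was 38.8% for PTGS2, 49.3% for ALOX5, 50.5% for ALOX5AP, 54.6% for PTGER4, 61.2% for PTGS1, 66.7% for PLA2G4A and 97.8% for LTA4H. PTGS2 and LTA4H thus lay at opposite ends of the 7 genes that rose. The order of the mean levels as deposited was DMSO, then LBH589, then HL13 in all 9 genes, which were chosen with earlier results known. The share of all genes with this order was not counted. After quantile normalization the difference of LTA4H between the compounds was -0.0016, so there its order was not kept. The step from LBH589 to HL13 did not pass the test for LTA4H, and neither step did for PTGES and PTGER2.

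**Figure D2:**
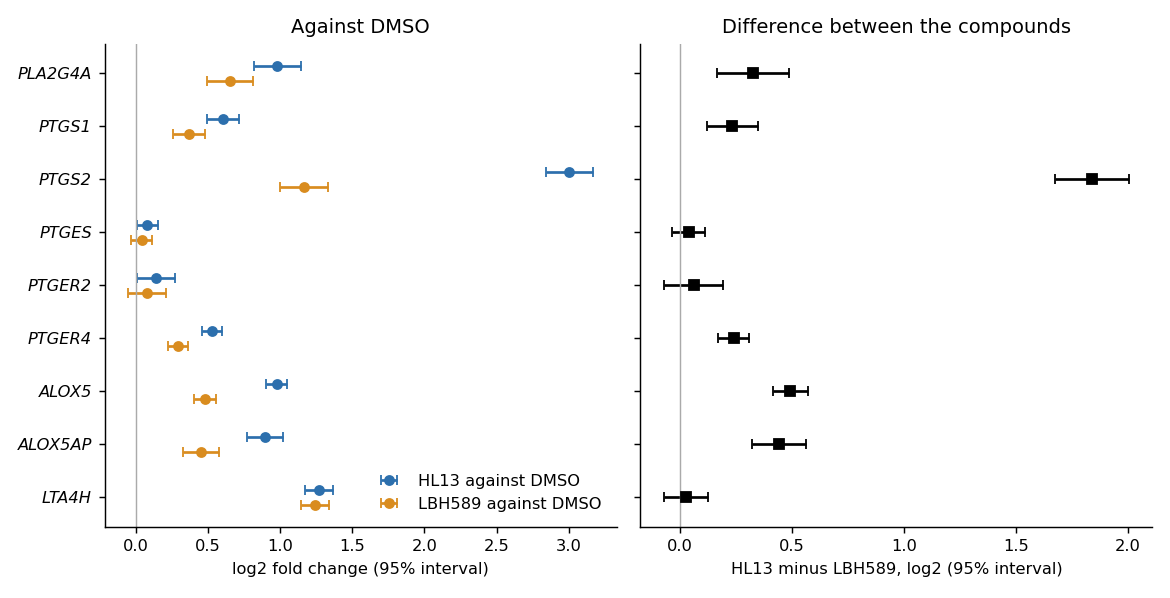
Log2 fold changes of the 9 genes with 95% intervals from the limma fit: left, HL13 (blue) and LBH589 (orange) against the same DMSO arrays; right, HL13 minus LBH589. PTGS2 lies at 3.0 and 1.16 on the left and at 1.84 on the right, whereas the 2 values of LTA4H nearly coincide and its difference interval, like those of PTGES and PTGER2, spans 0.

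PTGS2 and PLA2G4A are next to each other on chromosome 1 among the protein-coding genes of the RefSeq table. The long noncoding RNA PACERR, annotated between them, was not analysed here. The genes on the outer sides of the pair did not pass the test: PDC, beside PTGS2, differed from DMSO by -0.02 with HL13 (adjusted p = 0.785) and 0.06 with LBH589 (adjusted p = 0.458), and BRINP3, beside PLA2G4A, by -0.06 and -0.09 (adjusted p = 0.406 and 0.239). Around LTA4H on chromosome 12, HAL rose by 0.22 with each compound while ELK3 fell by 0.75 with HL13 and by 0.82 with LBH589. Next to PTGER2 on chromosome 14, PTGDR, a receptor for prostaglandin D2, differed by -0.02 and -0.03 (adjusted p = 0.602 and 0.504), whereas TXNDC16, on its other side, rose by 0.47 with HL13 and by 0.77 with LBH589 (adjusted p = 3.47e-05 and 1.53e-06). Beside PTGER4 on chromosome 5, DAB2 rose by 0.54 and 0.15 (adjusted p = 2.08e-06 and 0.00946) and TTC33 was not called. On chromosome 9, MRRF beside PTGS1 fell by 0.66 and by 0.51, and beside PTGES TOR1B rose by 0.26 and 0.18 while PRRX2 was not called. Beside ALOX5AP on chromosome 13, USPL1 fell by 0.19 with HL13 and was not called with LBH589, and MEDAG was not called, nor was OR13A1 beside ALOX5.

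The genes most like PTGS2 were sought by the root mean square difference of log2 values over the 9 arrays, each gene centred on its DMSO mean, among 18078 genes. The nearest were TLR3, with a difference of 0.21, DHRS2, with 0.23, ERRFI1, with 0.26, MGARP, with 0.30, and LIPH, with 0.32. TLR3 senses double-stranded RNA, ERRFI1 is an inhibitor of the EGF receptor and DHRS2 is a dehydrogenase. These 5 genes were chosen for likeness on the same arrays, so a rise with both compounds, larger with HL13, follows from the choice. The changes with HL13 and LBH589 were 3.11 and 1.47 for TLR3, 2.79 and 1.37 for DHRS2 and 2.64 and 0.95 for ERRFI1. For MGARP they were 2.55 and 1.03, and for LIPH 2.66 and 0.80. The Pearson correlation of the 5 with PTGS2 over the 9 arrays was 0.985 to 0.996. It is a description, since the genes were chosen for likeness and the arrays fall into 3 groups. Among the eicosanoid genes that correlation was 0.99 for ALOX5, 0.98 for PTGER4 and ALOX5AP, 0.94 for PLA2G4A and PTGS1, 0.81 for LTA4H, 0.73 for PTGES and 0.65 for PTGER2.

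**Figure D3:**
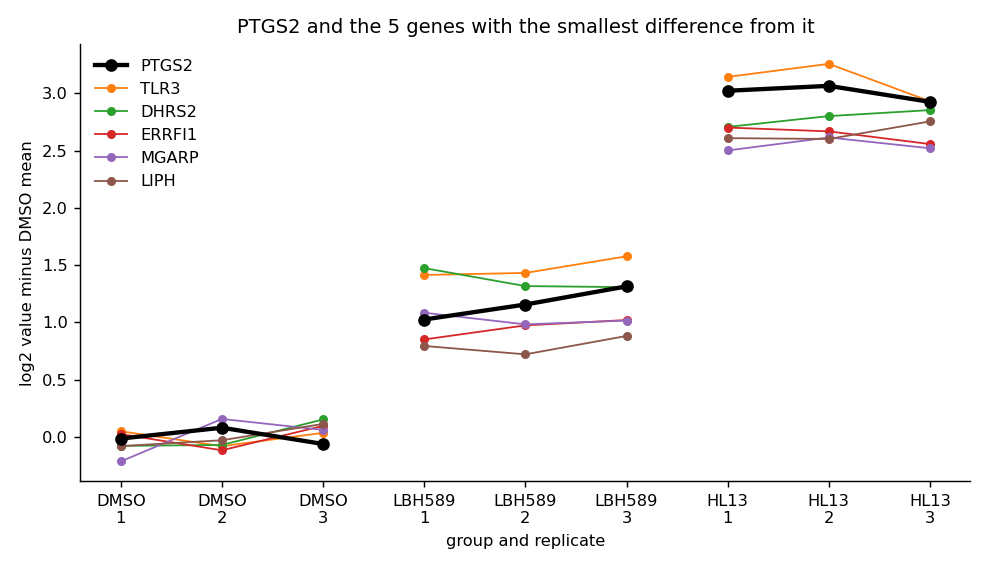
Log2 value minus the DMSO mean on each of the 9 arrays for PTGS2 (black) and the 5 genes with the smallest difference from it. All 6 lines lie near 0 in DMSO, between 0.72 and 1.58 with LBH589 and between 2.50 and 3.26 with HL13; lines join arrays for reading only, as replicates have no order.

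The rest of the pathway was read in 8 further lists. Of 84 further genes in these lists, 73 were measured, and with HL13 17 were called higher, 10 lower and 46 neither, beside 22.9% of all genes called higher and 21.5% lower, so the higher count was near that of all genes. With LBH589 9 were higher, 10 lower and 54 neither, beside 20.9% and 19.0% of all genes. Their median change was 0.01 with either compound. Between the compounds 9 of the 73 were higher with HL13 and 2, PLA2G15 and LPCAT3, were lower. Of all genes, 11.7% were higher and 11.6% lower, so the higher count was near that share.

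Few other phospholipases A2 were called. Of 17 measured, 1 rose and 1 fell with HL13, beside 22.9% and 21.5% of all genes, and 1 rose with LBH589, beside 20.9%. In each group 5 of the 17 lay below the array median on all arrays, where the lack of a call is little evidence of an unchanged gene. The gene that rose was PLAAT3, a phospholipase of adipose tissue and lens, by 0.71 with HL13 and 0.24 with LBH589, and the one that fell was PLA2G15, the lysosomal phospholipase, by 0.63 with HL13. PLA2G15 differed by -0.04 with LBH589 (adjusted p = 0.357) and between the compounds by -0.59 (adjusted p = 3.79e-06). PLA2G4A was thus the gene of this enzyme class with the largest rise among those measured.

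Of 9 other prostanoid synthases, 2 rose and 2 fell with each compound. The shares of all genes were 22.9% and 21.5% with HL13 and 20.9% and 19.0% with LBH589. CBR1, a carbonyl reductase that converts prostaglandin E2 to F2α, rose by 1.04 with HL13 and 0.66 with LBH589, and AKR1C3, which makes prostaglandin F2α, by 0.84 and 0.58. The 2 alternative prostaglandin E synthases fell: PTGES3, also the HSP90 cochaperone p23, by 0.59 and 0.66, and PTGES2 by 0.31 and 0.21. None of the 3 genes for a prostaglandin E synthase was thus called higher.

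Among 7 other prostanoid receptors, 1 fell with each compound and 0 rose. Of all genes, 21.5% fell and 22.9% rose with HL13, and 19.0% fell and 20.9% rose with LBH589. The receptor that fell was PTGDR2, a receptor for prostaglandin D2, by 0.34 with HL13 and by 0.24 with LBH589. PTGER3 and PTGFR lay below the array median on all arrays, where the lack of a call is little evidence of an unchanged gene. Among 6 genes of transport and breakdown, ABCC4, which exports prostaglandins, fell by 0.40 and 0.68, and PTGR3, a prostaglandin reductase, fell by 0.55 with each. PTGR2, which lay below the array median on all arrays, was higher with HL13 by 0.25 (adjusted p = 0.00133). HPGD, which inactivates prostaglandin E2, was higher with HL13 by 0.36 (adjusted p = 0.0344), a call that was lost under 8 of the alternatives tried.

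On the leukotriene side, 10 other lipoxygenase and leukotriene genes gave 2 rises and 1 fall with HL13 and 1 of each with LBH589. Rises and falls made up 22.9% and 21.5% of all genes with HL13 and 20.9% and 19.0% with LBH589. MGST2, which can make leukotriene C4, fell by 0.46 with HL13 and by 0.52 with LBH589, and its relative MGST3 rose by 0.30 and 0.23. The MGST3 call with LBH589 (adjusted p = 0.0475) was lost under quantile normalization (adjusted p = 0.0581), with arrays centred on their medians (adjusted p = 0.0866), with the replicate block, with the arrays of both groups alone, and when any 1 of the DMSO arrays, or LBH589 replicate 2 or 3, was left out. Of 5 leukotriene and lipoxin receptors, 1 fell with each compound and 0 rose, beside the shares of all genes given above. It was CYSLTR1, a receptor for the cysteinyl leukotrienes, which fell by 0.75 and 0.66 (adjusted p = 1.26e-05 and 3.61e-05). The other 4 were not called, and of these CYSLTR2 and FPR2 lay below the array median on all arrays. There the lack of a call is little evidence of an unchanged gene.

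Of 11 genes that supply or re-esterify arachidonic acid, 6 were higher and 2 lower with HL13, beside 22.9% and 21.5% of all genes, and 4 were higher and 2 lower with LBH589, beside 20.9% and 19.0%. ACSL1, an acyl-CoA synthetase, rose by 1.48 and 1.13. LPCAT3, which puts arachidonic acid back into phospholipids, rose by 0.94 with HL13 and by 1.32 with LBH589, with a difference of -0.38 between the compounds (adjusted p = 4.25e-05). ELOVL2, an elongase of polyunsaturated fatty acids, rose by 1.01 with HL13 and differed by 0.18 with LBH589 (adjusted p = 0.104). It was low, as defined above, in DMSO and with LBH589, with means of 4.61 and 4.78. At such levels the lack of a call with LBH589 is little evidence of an unchanged gene. The related ELOVL5 rose by 0.56 and 0.60.

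In the cytochrome P450 branch, which makes epoxides from arachidonic acid, 4 of 8 genes were higher with HL13 and 0 lower, beside 22.9% and 21.5% of all genes. With LBH589 1 was higher and 1 lower, beside 20.9% and 19.0%. One of the 4, CYP4F2, lay below the array median on all arrays. It rose by 0.20 with HL13 (adjusted p = 0.0176), a call that was lost under some of the alternatives. EPHX1, the microsomal epoxide hydrolase, rose by 0.75 and 0.54, and CYP2J2, an epoxygenase, rose by 0.34 with HL13 and differed by 0.05 with LBH589 (adjusted p = 0.426). EPHX2, the soluble epoxide hydrolase, went in opposite directions, with 0.11 for HL13 (adjusted p = 0.00476) and -0.30 for LBH589 (adjusted p = 6.13e-06).

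**Figure D4:**
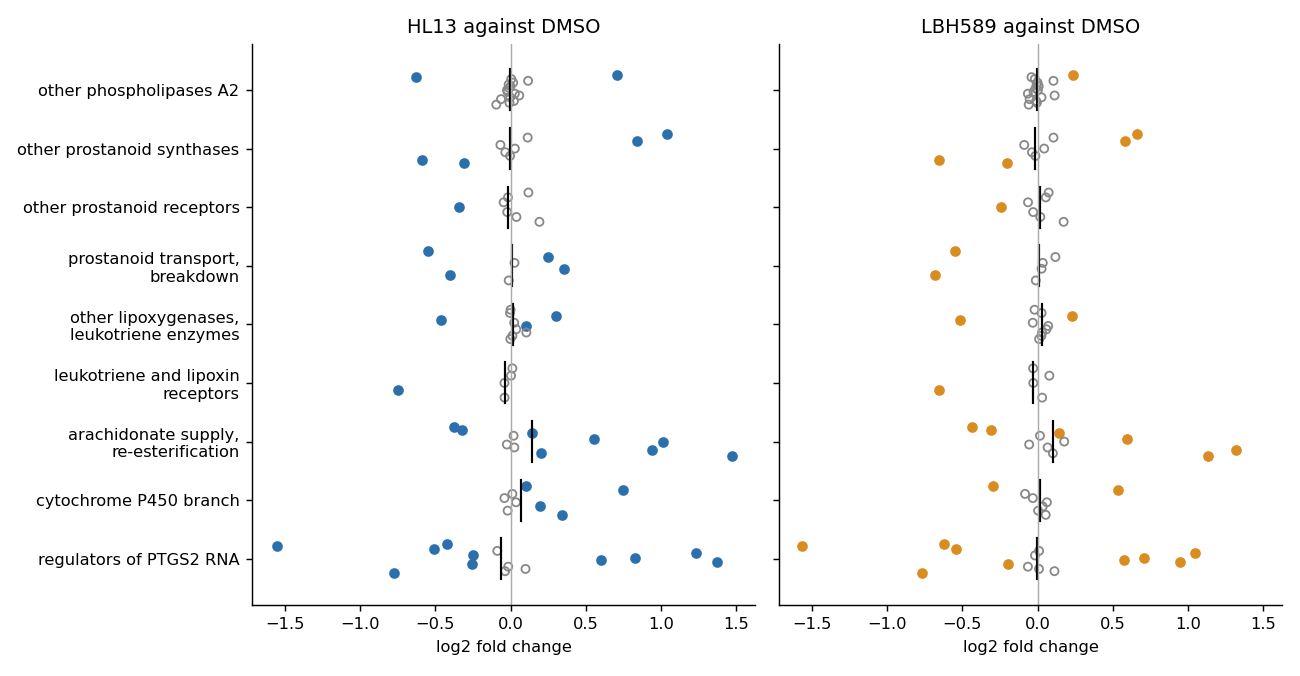
Log2 fold change of every measured gene of 8 pathway lists and of the list of regulators of PTGS2 RNA, against DMSO, with HL13 on the left and LBH589 on the right. Filled dots are genes called at an adjusted p under 0.05, open dots are not called and black bars are list medians, which lie near 0 in every list except arachidonate supply, at 0.14 and 0.10.

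Of 14 factors known to control PTGS2 RNA, all measured, 4 rose and 6 fell with HL13, beside 22.9% and 21.5% of all genes, and 4 rose and 5 fell with LBH589, beside 20.9% and 19.0%. JUN, an AP-1 subunit, rose by 1.37 and 0.94, with a difference between the compounds of 0.43 (adjusted p = 7.30e-05), and EGR1 rose by 0.83 and 0.71. ZFP36, or tristetraprolin, which hastens the decay of PTGS2 RNA, rose by 1.23 and 1.05, while CELF2, which binds the same RNA and blocks its translation, fell by 1.55 and 1.57. The last 3 did not pass the test between the compounds (adjusted p = 0.158 for EGR1, 0.104 for ZFP36 and 0.892 for CELF2). The differences were 0.12, 0.18 and 0.01 in the same order, and the 95% interval for ZFP36 was 0.02 to 0.35. A test that is not passed does not show equal levels. The part of these factors in the PTGS2 difference was not tested.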

How the data were processed

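MM.1S cells were profiled on 9 Affymetrix Human Transcriptome arrays, 3 per group. The authors deposited 1 log2 value per transcript cluster and array, used as deposited. Probe summarisation and normalization are not given in the sources used here, since the study's methods cover RNA sequencing. The values span 1.72 to 14.60. Array medians nearly coincide, so a shift shared by most genes could be hidden. There were no detection flags, and the number of arrays limits the precision (median SE 0.04 on the log2 scale). The lowest correlation within a group was 0.997, and 0 arrays were identical.

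Of 70523 probe sets, 23781 carried 1 symbol, 1543 several and 45199 none. The cluster with the highest mean was taken per gene, with no filter on dim clusters, which left 22465 genes, and probe sets with several symbols or none were left out of the tests. All 9 arrays were fitted together with a mean per group (limma 3.58.1, R 4.3.3, lmFit and eBayes, two-sided), and p values were Benjamini-Hochberg adjusted over all genes and called under 0.05. The script was tested on simulated data. The members and lists were chosen with earlier results of these data known. The genes named are the 9, up to 4 called genes per further list with the largest change, and the 5 most like PTGS2. Alternatives were a dim filter, other scalings, an intensity trend, fewer arrays, a mean over clusters and the replicate number as a block. All 9 symbols matched RefSeq names (GRCh38.p14) by Entrez number.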

Additional observations from a re-analysis of the deposited data

How the results depend on the processing

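The calls of the 9 genes and the counts over all genes were recomputed under 16 settings. The counts of all genes called ranged from 9206 to 10348 for HL13 against DMSO (9981 as reported), from 8240 to 9068 for LBH589 (8971) and from 4163 to 5432 between the compounds (5243). Of 351 recomputed values of the 9 genes, 348 kept their direction and their side of the threshold. Several settings could not change a direction here. The dim filter, the intensity trend, the replicate block and the fits on both groups alone used the same values, and each of the 9 has a single cluster to average. PTGER2 passed the threshold with HL13 in the fit with the replicate block. LTA4H between the compounds, not called, was -0.0016 after quantile normalization and 0.00 to 0.0713 when each array was left out in turn. With the dim filter, which kept 15842 genes, all 9 stayed, PTGS2 through its treated arrays alone. With the replicate block, 9465 genes were called for HL13 against DMSO, 8456 for LBH589 against DMSO and 4392 for HL13 against LBH589, and 8, 7 and 6 of the 9 genes. Arrays of the same number did not deviate together (correlations of -0.21 to 0.04), so the numbers were not taken to pair them.

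Of 854 values of other pathway genes and regulators, 824 kept direction and call, 24 lost the call, 1 gained it and 5 changed sign. The changes of sign were in values not called: PLA2G15 with LBH589 was 0.0124 after quantile normalization, HPGD with LBH589 ranged from -0.0343 to 0.118 and CYP4F2 with LBH589 from -0.0098 to 0.0955 when an array was left out. The calls that were lost were those of HPGD, ALOXE3 and CYP4F2 with HL13 and MGST3 with LBH589. The cause was not tested.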

Other observations

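Among the regulators of PTGS2 RNA, a pair outside the rule for naming genes was chosen after its values were seen. NFKB1, which encodes an NF-kB subunit, fell by 0.78 with HL13 and by 0.77 with LBH589 (limma, adjusted p = 2.66e-07 and 3.81e-07). ELAVL1, or HuR, a protein that stabilises PTGS2 RNA, fell by 0.25 with HL13 (adjusted p = 8.05e-05) and differed by -0.02 with LBH589 (adjusted p = 0.718), and the difference between the compounds was -0.23 (adjusted p = 5.05e-04). Others of that list moved too. With HL13 and LBH589, ZFP36L2 fell by 0.51 and 0.54, TIA1 by 0.42 and 0.62 and CREB1 by 0.26 and 0.20, while FOS rose by 0.60 and 0.57. RELA was not called against DMSO (-0.04 and 0.11) and differed by -0.15 between the compounds (adjusted p = 0.0318). A cluster shared by FADS1, a desaturase on the way to arachidonic acid, and the microRNA gene MIR1908 carries 2 symbols and names no single gene. It differed from DMSO by -0.17 with HL13 and by -0.18 with LBH589 (SE 0.04).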
